A study of Mus musculus with 18 samples.

Results

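The expression of 10 genes of the fibroblast growth factor (FGF) pathway was followed through siRNA knockdown of Stag1 in mouse embryonic stem cells (mESCs). They were the ligand gene Fgf4, the receptor genes Fgfr1 and Fgfr2, the inhibitor genes Spry2, Spry4 and Spred1, the phosphatase genes Dusp6 and Dusp4, and the transcription factor genes Etv4 and Etv5. They were chosen by name as FGF-ERK feedback genes, with earlier results of these data known. All 10 were found among the 18659 genes of the deposited table. Each had a summed value above the filter on low values in both tables fitted, so all 10 were tested.

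mESCs secrete FGF4, which acts back on the cells through FGF receptors and the RAS-RAF-MEK-ERK kinase cascade. ERK activity primes mESCs to leave the naive state, and it also switches on genes that damp it. Sprouty and Spred proteins act on RAS and RAF, DUSP6 and DUSP4 remove phosphate from ERK, and ETV4 and ETV5 are ETS-family transcription factors that are standard readouts of FGF signaling. The levels of such feedback genes are widely used as a readout of pathway output.

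The cells were male E14 mESCs grown in serum and LIF on gelatin, and profiled by RNA-seq of rRNA-depleted total RNA in 16 libraries. Cells given siRNA were harvested 24 h after transfection, while the untreated cells were given none. All libraries came from this cell line, and the scr cells also carried a transfected siRNA. The siRNAs were a scrambled control (scr), the SmartPool to Stag1 (SP), siRNAs to the 3' end (3p) and the 5' end (5p) of Stag1 mRNA, and an esiRNA (an enzymatically made siRNA mix) to transcripts from SATS, a start site upstream of the canonical one. Set 1 held 1 scr library and the SP libraries 1a, 1b and 1c, while in sets 2 and 3 scr and the 4 Stag1 siRNAs had 1 library each. Set 2 also held untreated cells and set 3 cells given a luciferase esiRNA. The 5p reagent was 1 custom duplex, whereas SP and 3p were mixes of commercial siRNAs that shared catalog numbers, so SP and 3p were not independent reagents. The labels do not say that replicates of a siRNA were separate cultures, so p-values measure only the spread between these samples, which may be technical.

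Stag1, the target, had normalized read counts of 1876 and 2113 in scr of sets 2 and 3. It stood at 19.6% ± 2.89 of the scr of the same set in SP (SD, n = 2), 19.1% ± 2.57 in 3p, 21.3% ± 3.22 in 5p and 50.1% ± 0.522 in SATS. SATS left the most Stag1 RNA. Set 1 had 9023224 to 14040830 reads on genes, of which the rRNA precursor Rn45s took 69.2% to 79.1%, against 32137666 to 45660840 reads and 14.7% to 23.9% in sets 2 and 3. Set 1 thus stood apart from the other sets, and results are given with and without it. All 8 mESC markers examined were detected, with summed normalized read counts of 35661 and 36180 in scr of sets 2 and 3. The sums were 31473 and 34984 in SP, 30117 and 36751 in 3p, 34593 and 39502 in 5p, and 35488 and 37996 in SATS. Untreated and luciferase cells had sums between 34870 and 39144. Both SP libraries were thus below scr, and the lowest sum was in 3p, while 3p, 5p and SATS spread to both sides. The part of these markers in the SP and 3p values was not tested.

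Promoter sequences are shown for Fgf4 and Spry2, a ligand gene and an inhibitor gene that were both lower in SP, 3p and SATS and higher in 5p than in scr of the same set in sets 2 and 3. They are the 250 bases before the RefSeq start site on build GRCm38.p6, read 5' to 3' along the gene, at chr7:144861136-144861385 (plus strand) for Fgf4 and chr14:105896820-105897069 (minus strand) for Spry2. Capitals mark CCGCCC, the GC box bound by Sp1-family factors, on either strand.
Fgf4: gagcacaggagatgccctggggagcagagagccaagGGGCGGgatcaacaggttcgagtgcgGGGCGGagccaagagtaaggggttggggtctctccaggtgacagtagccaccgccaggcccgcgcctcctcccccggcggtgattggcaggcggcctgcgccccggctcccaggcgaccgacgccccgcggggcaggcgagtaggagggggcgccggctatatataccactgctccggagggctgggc
Spry2: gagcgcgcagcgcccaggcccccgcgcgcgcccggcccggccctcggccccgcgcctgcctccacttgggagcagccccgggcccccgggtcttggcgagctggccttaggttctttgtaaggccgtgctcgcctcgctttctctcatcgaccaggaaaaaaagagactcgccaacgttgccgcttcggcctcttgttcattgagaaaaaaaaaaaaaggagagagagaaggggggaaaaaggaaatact
The Fgf4 window held 2 GC boxes and the Spry2 window held none. A GC box was present in 32.7% of the 32851 mouse promoter windows of this length. The ETS motif CCGGAAG, present on either strand in 6.91% of windows, was in neither of them, nor in the windows matched for Fgfr2, Spred1, Dusp6 and Etv5. A match or its absence describes the letters of this window only.

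On the scale of normalized read count per kilobase of annotated exon, Etv5 was the highest member in scr of sets 2 and 3, at 1694 ± 223 (SD, n = 2). Spry2 (865 ± 106), Dusp6 (763 ± 106) and Dusp4 (702 ± 221) followed, and their order did not exceed their spread, nor did the step from Dusp4 to Fgf4. Fgf4 (492 ± 6.56), Spry4 (431 ± 103), Fgfr1 (396 ± 64.2), Spred1 (325 ± 64.5) and Etv4 (302 ± 55.0) came next, again with neighbors inside each other's spread. Fgfr2, the less abundant of the receptors, was lowest at 100.1 ± 1.36. Over the 16 libraries the reads behind a value ran from 35 to 1580 for Fgfr2, from 177 to 3724 for Fgf4 and from 898 to 19065 for Etv5, with the fewest in set 1.

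**Figure D1:**
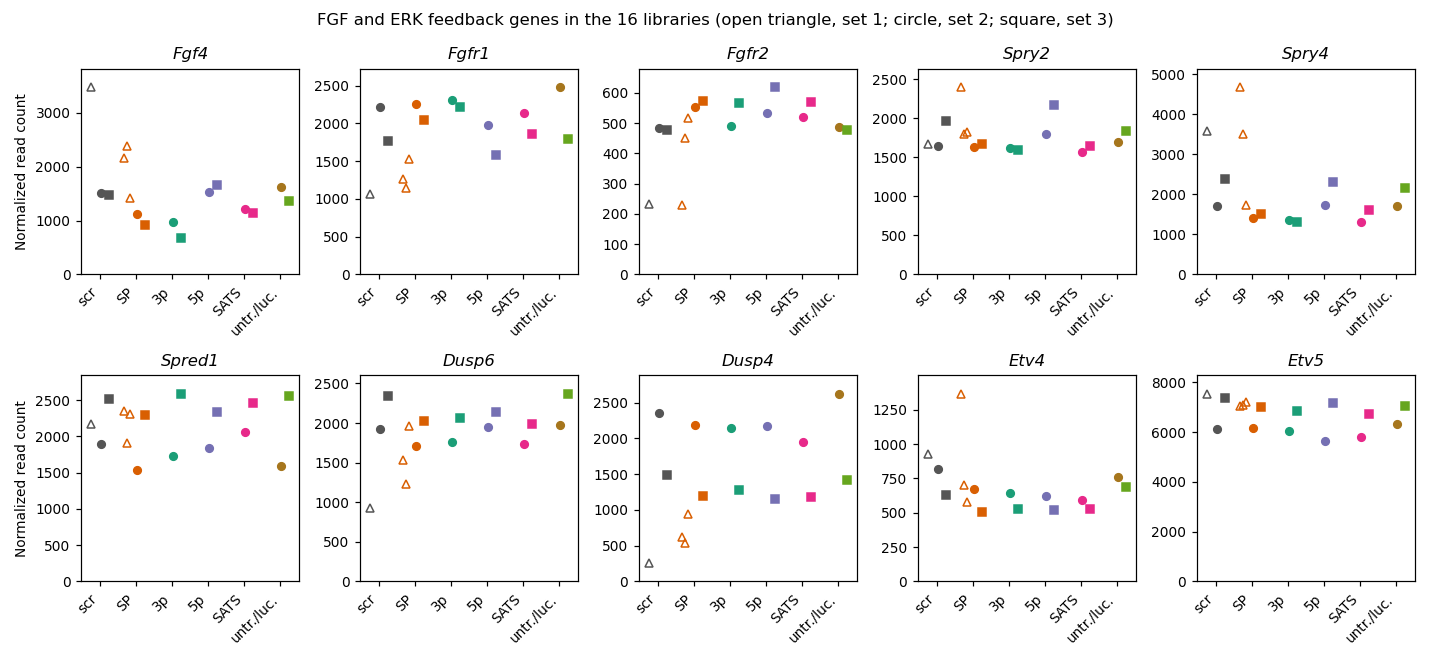
Normalized read count (y axis, from 0) of each of the 10 genes in the 16 libraries, by siRNA along the x axis; every symbol is 1 library, with open triangles for set 1, circles for set 2 and squares for set 3. Fgf4 and Spry4 sit below scr of their own set in SP, 3p and SATS of sets 2 and 3 and near it in 5p, while set 1 often lies at another level, as for Dusp4.

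In sets 2 and 3 the largest fitted differences of the 10 members in SP and 3p, and in 5p against 3p, were those of Fgf4 and Spry4. In SATS Etv4 came between Spry4 and Fgf4, and in 5p against scr Etv4 had the largest. Fgf4 and Spry4 were lower than scr of the same set in all 6 SP, 3p and SATS libraries of sets 2 and 3. Both stayed close to scr in 5p. Counted over the whole gene, Stag1 stood at 19.1% ± 2.57 of scr in 3p and 21.3% ± 3.22 in 5p (SD, n = 2). The part of the Stag1 RNA left, or of its isoforms, in these values was not tested. Spry2, Dusp6, Dusp4 and Etv4 were also lower in all 6 libraries, which makes 6 of 10 members beside 9.36% of all genes tested. Fgfr2 was higher in all 6, a pattern held by 7.86% of genes. Against scr of the same set, 7 of 10 members were lower in both sets in SP (29% of genes), 7 in 3p (29.7%), 7 in SATS (33.8%) and 5 in 5p (30.1%). Those higher in both sets were 2 members in SP (28.5%), 2 in 3p (25.9%), 1 in SATS (32.4%) and 3 in 5p (32.7%), the last being Fgf4, Fgfr2 and Spry2. With both libraries of a siRNA set against both of scr, without regard to set, 3 members in 3p lay wholly below (Fgf4, Spry2 and Spry4, beside 11.7% of genes), 2 in SP (Fgf4 and Spry4, beside 12.1%), 3 in SATS (Fgf4, Spry4 and Etv4, beside 15.7%) and 1 in 5p (Etv4, beside 13.7%). Fgfr2 lay wholly above scr in SP (11.4% of genes), 3p (9.61%), SATS (14.2%) and 5p (14.5%), the last together with Fgf4. In 5p against 3p, Fgf4, Spry2 and Spry4 lay wholly above (13.3%) and Fgfr1 wholly below (10.7%), and in SATS against SP Fgf4 lay wholly above (14.2%).

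No member passed an adjusted p of 0.05 in limma's test without the replicate set as a block, in which 0.00606% of genes did so in SP and in 3p, 0.0121% in 5p and in SATS against SP, and 0% in the other comparisons. At an unadjusted p under 0.05 that test held 2 members lower in SP (1.43% of genes), 2 lower in 3p (1.02%), 1 lower in SATS (1.67%) and 3 higher in 5p than in 3p (1.96%). The calls below come from the same limma test with the set as a block. The labels mark the sets as replicate sets and libraries of a set deviated together, so each library is compared there with the others of its set. The labels do not say whether the libraries of a set were prepared together.

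Fgf4 (chr7:144861386-144865245, plus strand, mm10) is the main FGF ligand that mESCs make for themselves. Its normalized read count was 1505 in scr, 1128 in SP, 981 in 3p, 1523 in 5p and 1220 in SATS of set 2, and 1477, 910, 672, 1668 and 1133 in the same order in set 3. The untreated library of set 2 had 1624 and the luciferase library of set 3 had 1370. In both sets 3p was lowest, SP next and SATS between SP and scr, and none of these 6 libraries reached the lowest of the control or 5p libraries. Fgf4 thus stood at 55.3% ± 13.9 of scr in 3p (SD, n = 2), 68.3% ± 9.41 in SP, 78.9% ± 3.06 in SATS and 107% ± 8.31 in 5p.

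With the block, Fgf4 fell in 3p by 0.88 on the log2 scale (SE 0.12, limma adjusted p = 0.00937), lower in 2 of 2 sets. Its values were -0.56 in SP (adjusted p = 0.0537) and -0.34 in SATS (adjusted p = 0.146), which missed the threshold, and 0.10 in 5p with a 95% interval of -0.17 to 0.36. The 3p call ended when scr replicate 2 was left out (-0.97, adjusted p = 0.106), when scr replicate 3 was left out (-0.79, adjusted p = 0.264) and when 3p replicate 3 was left out (-0.64, adjusted p = 0.0825). SATS and SP differed by 0.21, with an interval of -0.05 to 0.48, so a difference between them was not detected. When the untreated and luciferase libraries were counted as controls beside scr, with the block, the values were -0.88 in 3p (adjusted p = 0.000306), -0.56 in SP (adjusted p = 0.00611) and -0.34 in SATS (adjusted p = 0.0340). This control group was added after the data were seen. With it the block fit called more genes in each of these comparisons than with scr alone, as counted in the last section.

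The contrast of 5p with 3p compares reagents to the ends of Stag1. Fgf4 was higher in 5p than in 3p by 0.97 (SE 0.12, adjusted p = 0.00088, 95% interval 0.71 to 1.24), and this call remained when each of the 10 libraries was left out in turn (0.74 to 1.21, highest adjusted p = 0.0251). Without the block the same difference had an adjusted p of 0.362. Spry4 was higher in 5p by 0.58 (SE 0.11, adjusted p = 0.0108), but not called without 3p replicate 3 (0.39, adjusted p = 0.179) or 5p replicate 3 (0.47, adjusted p = 0.207). Spry2 was 0.30 higher in 5p with an adjusted p of 0.0857, which missed the threshold. Fgfr1 went the other way, lower in 5p by 0.35 (a log2 fold change of -0.35, SE 0.08, adjusted p = 0.0293). The Fgfr1 call ended without 3p replicate 3 (-0.26, adjusted p = 0.384), 5p replicate 3 (-0.29, adjusted p = 0.381), scr replicate 2 (-0.35, adjusted p = 0.0503) or scr replicate 3 (-0.35, adjusted p = 0.0504). In this comparison 1.3% of all genes tested were called higher and 1.95% lower, against 2 and 1 of the 10 members. For the other 6 members the fitted differences between 5p and 3p lay between -0.07 and 0.12.

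**Figure D2:**
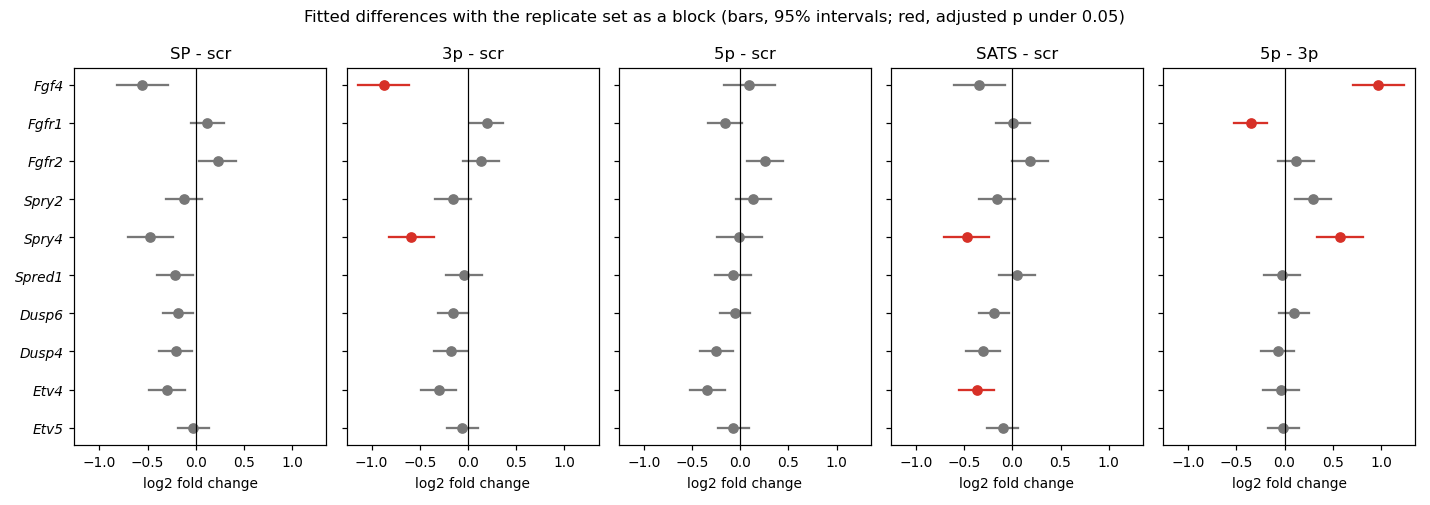
Fitted log2 fold changes of the 10 genes in sets 2 and 3 (x axis) with the replicate set as a block, in panels for SP, 3p, 5p and SATS against scr and for 5p against 3p; points are estimates, bars 95% intervals, and red marks an adjusted p under 0.05. Fgf4 and Spry4 lie left of 0 in 3p, around 0 in 5p, and right of 0 in the contrast of 5p with 3p.

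Neither receptor gene passed the test against scr. Fgfr1 (chr8:25518759-25575718), the principal FGF receptor of mESCs, had normalized read counts of 2220 in scr, 2263 in SP, 2308 in 3p, 1976 in 5p and 2136 in SATS of set 2, and 1764, 2041, 2216, 1587 and 1855 in set 3. It was above scr of its set in both SP and both 3p libraries and below it in both 5p libraries, but the untreated library at 2478 exceeded every library of set 2. Its fitted values against scr ran from -0.16 in 5p to 0.19 in 3p. Fgfr1 shares 2.49% of its exon length with the antisense gene Gm16159, which was close to 0 in the table.

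Fgfr2 (chr7:130162451-130266808), a receptor better known from the primitive endoderm and trophoblast, had 485 in scr of set 2 and 476 in scr of set 3. The knockdown libraries held 492 to 553 in set 2 and 568 to 618 in set 3, and the untreated and luciferase libraries 488 and 477. All 8 knockdown libraries were thus above every control library. The fitted values were small, from 0.14 in 3p (adjusted p = 0.628) to 0.26 in 5p (adjusted p = 0.162), and none passed. With untreated and luciferase as further controls and the block, the 5p value of 0.25 had a limma adjusted p of 0.0466. That fit called more genes in 5p than the fit with scr alone.

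Among the inhibitors, Spry4 followed Fgf4. Spry4, a Sprouty protein gene that ERK signaling induces, had normalized read counts of 1704 in scr, 1404 in SP, 1369 in 3p, 1739 in 5p and 1314 in SATS of set 2, with 1717 in untreated cells. In set 3 the values were 2397, 1510, 1322, 2319 and 1611, with 2150 in luciferase cells. SP, 3p and SATS were below all control and 5p libraries, and the drop was larger in set 3 than in set 2 for each of them. Spry4 stood at 67.8% ± 17.8 of scr in 3p, 72.7% ± 13.7 in SP, 72.2% ± 7.0 in SATS and 99.4% ± 3.76 in 5p (SD, n = 2).

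With the block, Spry4 fell in 3p by 0.59 (SE 0.11, adjusted p = 0.0433) and in SATS by 0.47 (SE 0.11, adjusted p = 0.0374), lower in 2 of 2 sets each. In SP it was -0.47 (adjusted p = 0.0688), and in 5p -0.01 with an interval of -0.24 to 0.23. The 3p call ended without scr replicate 2 (-0.74, adjusted p = 0.119), scr replicate 3 (-0.44, adjusted p = 0.539), 3p replicate 3 (-0.40, adjusted p = 0.388), SP replicate 2 (-0.59, adjusted p = 0.0565) or SP replicate 3 (-0.59, adjusted p = 0.0573). With TMM factors in place of the deposited scaling its adjusted p was 0.0502. The SATS call ended without scr replicate 2 (-0.62, adjusted p = 0.101), SATS replicate 2 (-0.45, adjusted p = 0.108), scr replicate 3 (-0.32, adjusted p = 0.435) or SATS replicate 3 (-0.50, adjusted p = 0.361). Fgf4 and Spry4 were the members called in 3p, 2 of 10 against 0.237% of all genes called lower, and Spry4 and Etv4 those called in SATS, 2 of 10 against 0.746%. In SP and 5p none of the 10 was called, where 0.746% and 2.37% of all genes were.

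Spry2 (chr14:105891947-105896819) is the other Sprouty gene of the list. It ranged from 1567 to 1801 in set 2, with scr at 1647, and from 1595 to 2171 in set 3, with scr at 1961. SP, 3p and SATS were lower and 5p higher than scr of the set in both sets, but in set 2 SP at 1638 and 3p at 1626 were close to scr. Spred1 (chr2:117121071-117182279), which restrains RAS, varied more between sets than between siRNAs. It had 1539 to 2057 in set 2 and 2301 to 2583 in set 3, and the untreated library at 1585 was close to SP at 1539.

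**Figure D3:**
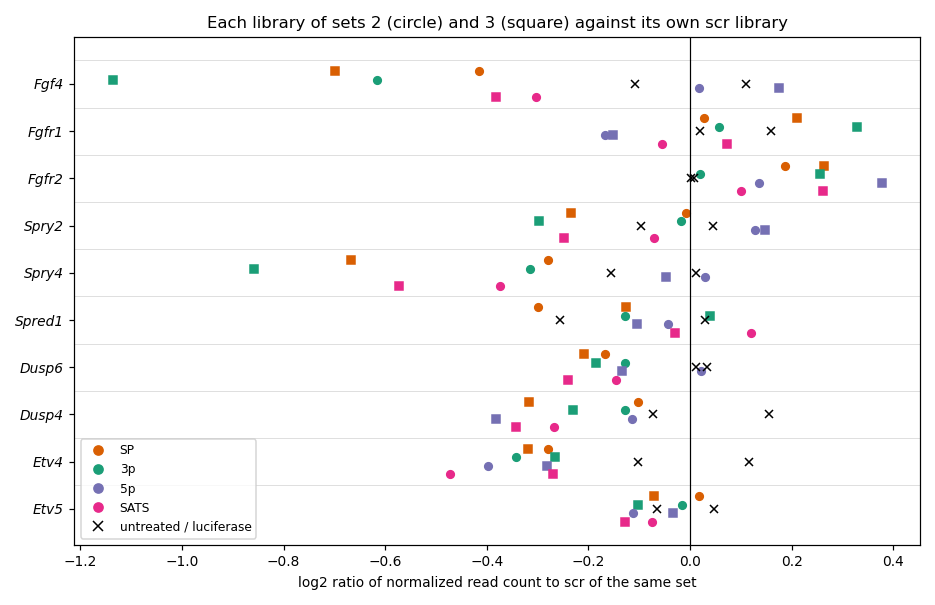
Log2 ratio of normalized read count to scr of the same set (x axis) for each of the 10 genes (y axis); every symbol is 1 library of set 2 (circle) or set 3 (square), colored by siRNA, with crosses for untreated and luciferase cells. For Fgf4 and Spry4 the 5p libraries sit near or to the right of the crosses while SP, 3p and SATS lie to the left, and for Dusp4 and Etv4 all 8 knockdown libraries lie to the left of both crosses.

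The phosphatase genes differed from each other in how they stood in 5p. Dusp6 (chr10:99263231-99267489) encodes the phosphatase of cytoplasmic ERK and had 1925 in scr of set 2 and 2344 in scr of set 3. SP, 3p and SATS held 1714 to 1762 in set 2 and 1983 to 2063 in set 3, below scr, 5p and the other controls. In 5p it had 1954 and 2136, above scr of set 2 and below scr of set 3. Dusp4 (chr8:34807610-34819894), which encodes a nuclear phosphatase, was lower than scr in all 8 knockdown libraries, 5p included. It had 2351 in scr and 1953 to 2191 in the knockdowns of set 2, and 1495 in scr and 1147 to 1275 in set 3, with 2620 in untreated and 1421 in luciferase cells. The largest fitted value of either gene against scr in sets 2 and 3 was -0.31, for Dusp4 in SATS (adjusted p = 0.0595), and none passed the test. With untreated and luciferase as added controls, Dusp4 in SATS (-0.33, adjusted p = 0.00517), Dusp6 in SATS (-0.20, adjusted p = 0.0289) and Dusp4 in 5p (-0.27, adjusted p = 0.0196) passed. That fit called more genes in SATS and in 5p than the fit with scr alone, as counted in the last section.

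Etv4 (chr11:101769747-101785310), an ETS factor gene induced by FGF, was lower than every control library of its set in all 8 knockdown libraries. Its normalized read count was 818 in scr, 762 in untreated cells and 589 to 673 in the knockdowns of set 2, and 631 in scr, 684 in luciferase cells and 506 to 525 in the knockdowns of set 3. Etv4 stood at 81.2% ± 1.55 of scr in SP, 81.0% ± 3.10 in 3p, 79.1% ± 4.47 in 5p and 77.5% ± 7.73 in SATS (SD, n = 2). With the block, Etv4 fell in SATS by 0.37 (SE 0.09, adjusted p = 0.0369), while the values in 5p (-0.34, adjusted p = 0.0548), SP (-0.30, adjusted p = 0.143) and 3p (-0.30, adjusted p = 0.177) missed the threshold. With edgeR's quasi-likelihood test on recovered reads and the block, the 5p value was -0.35 with an adjusted p of 0.0464, where 1.77% of all genes were called lower. The SATS call ended without scr replicate 2 (-0.33, adjusted p = 0.212), SATS replicate 2 (-0.29, adjusted p = 0.168), scr replicate 3 (-0.42, adjusted p = 0.273) or SATS replicate 3 (-0.45, adjusted p = 0.296). Etv5 (chr16:22381313-22439570), its relative and the most abundant member, stayed between 5650 and 6313 in set 2 and between 6737 and 7360 in set 3. Its fitted values against scr were -0.10 to -0.03, and none passed.

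Set-centered values separated the libraries in different ways for different members. After the mean of each set was removed from log2(value + 1), Fgf4 was -0.78 to -0.02 in the 6 SP, 3p and SATS libraries and 0.20 to 0.53 in the 6 scr, 5p, untreated and luciferase libraries. Spry4 was -0.47 to -0.12 and 0.15 to 0.38 in the same libraries. Spry2 was -0.18 to -0.02 and -0.01 to 0.27, and Dusp6 -0.11 to -0.06 and -0.01 to 0.14. The groups of these 4 members did not overlap, as for 0.976% of all genes, and 0 members were wholly higher in SP, 3p and SATS, as 0.673% of genes were. How the libraries are grouped in this paragraph was chosen after the values were seen. Within the 6 SP, 3p and SATS libraries Fgf4 and Spry4 had a Pearson correlation of 0.78, and within the other 6 one of 0.73. In the same order it was 0.40 and 0.86 for Fgf4 and Spry2, and 0.86 and 0.70 for Spry2 and Spry4; these describe libraries that share set and depth. Dusp4 and Etv4 instead separated all 8 knockdown libraries, at -0.19 to -0.01 and -0.21 to -0.01, from the 4 control libraries, at 0.08 to 0.23 and 0.16 to 0.29, as 1.73% of genes did. Fgfr2 separated them in the other direction, at -0.06 to 0.18 in the knockdowns and -0.19 to -0.07 in the controls, as 1.39% of genes did.

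**Figure D4:**
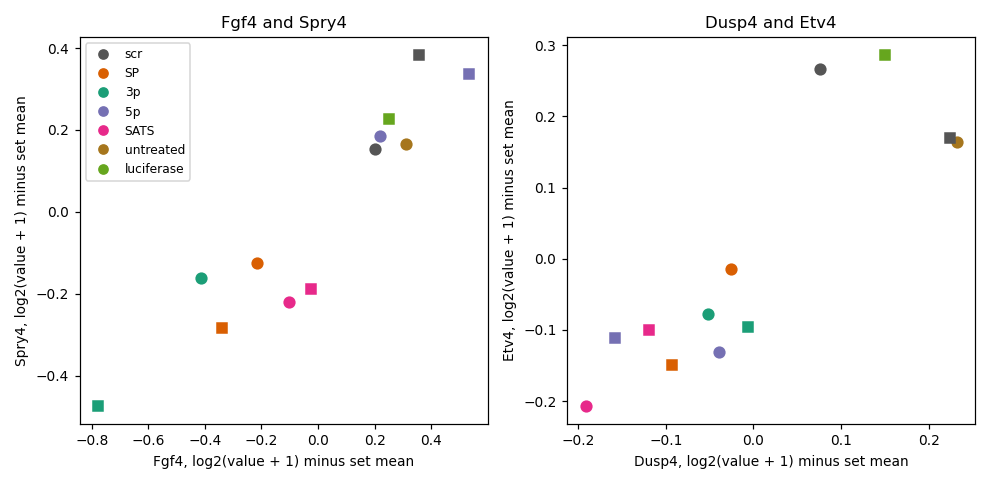
Log2(normalized read count + 1) minus the mean of its set for Fgf4 against Spry4 and for Dusp4 against Etv4; every symbol is 1 of the 12 libraries of sets 2 (circle) and 3 (square), colored by siRNA. The 5p libraries lie with the controls for Fgf4 and Spry4 and with the other knockdowns for Dusp4 and Etv4.

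Among 11026 genes ranked by the correlation of these set-centered values over the 12 libraries, the genes most like Fgf4 were Parp11 (r = 0.98), Irf2bpl (0.98) and Sun1 (0.96). Those most like Spry4 were Ube2cbp (0.96), Hmces (0.95) and Obfc1 (0.95), and those most like Spry2 were Atp6v0a4 (0.98), Socs3 (0.95) and Tfeb (0.95). Fgfr1 was most like Pcnx (0.96), Unc5b and Bcar3, Fgfr2 most like Cmtm3 (0.93), Mllt1 and Lefty1, and Spred1 most like Vcpip1 (0.93), Il1rap and Atr. For Dusp6 the nearest were Ddx31 (0.92), Ggt1 and Coro2b, for Dusp4 they included Jph4 (0.92) and Mcm3ap, for Etv4 Ercc8 (0.93), Taf1c and Pde2a, and for Etv5 Ranbp3 (0.96), Sppl2b and Slc7a5. No member was among the nearest genes of another. The 12 libraries share siRNA groups and sequencing depth, which these correlations include.

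Set 1, with SP alone, gave a different picture for several members. Fgf4 had 3476 in scr and 2162, 2390 and 1425 in SP 1a, 1b and 1c, so it was lower in all 5 SP libraries of the series, as 9.06% of genes were. Over the 3 sets, with 1a, 1b and 1c averaged, Fgf4 stood at 64.6% ± 9.18 of scr (SD, n = 3). Its fitted value was -0.64, with a limma adjusted p of 0.416 with the block, a fit in which 0% of genes were called and 2 members were lower at an unadjusted p under 0.05, beside 2.81% of genes. The edgeR test with the block, which called 0.338% of genes lower, gave -0.59 with an adjusted p of 0.00316. Fgfr1 was higher in all 5 SP libraries, as 7.85% of genes were, with 1065 in scr and 1138 to 1530 in SP of set 1.

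Dusp4, Dusp6 and Spry2 ran against sets 2 and 3. Dusp4 had 261 in scr of set 1 and 616, 534 and 942 in SP, log2 ratios of 1.23, 1.03 and 1.85, where it was lower than scr in SP of sets 2 and 3. The scr value rested on 39 reads, and the 95% counting interval of the smallest of these ratios was 0.52 to 1.57. Dusp6 had 931 in scr and 1537, 1229 and 1965 in SP, and Spry2 had 1667 in scr and 2397, 1798 and 1820. The counting intervals of the Spry2 ratios included 0 in SP 1b and 1c, and also in SP of set 2. These 3 of 10 members were higher in SP in set 1 and lower in sets 2 and 3, as were 6.54% of all genes, and 0 members did the reverse, as 6.82% of genes did. Spry4 (3596 in scr, 4677, 3509 and 1740 in SP) and Etv4 (924 in scr, 1363, 701 and 580 in SP) spread to both sides of scr among the 3 SP libraries. Fgfr2 had 234 in scr and 230, 450 and 515 in SP, Spred1 had 2170 and 2355, 1914 and 2303, and Etv5 had 7527 and 7047, 7082 and 7232. Etv5 was thus below scr in all 3 and the others spread to both sides of it. Beside these values, the summed level of 8 primitive endoderm markers was 5397 in scr of set 1 and 886 to 3587 in its SP libraries, against 822 to 1785 in SP and 859 to 1652 in scr of sets 2 and 3. The 8 mESC markers summed to 64140 in scr of set 1 and to 36369 to 52419 in its SP libraries, which were thus lower like Fgf4. Sums of 8 fibroblast markers were 214 in scr and 116 to 475 in SP of set 1. They were 582 to 2956 in scr of sets 2 and 3, and 407 to 5822 in untreated and luciferase cells. Those of 5 two-cell-like markers were 295 in scr and 32.2 to 442 in SP of set 1, and 29.4 to 255 in scr of sets 2 and 3. The part of these markers, and of the high Rn45s share, in the set 1 values was not tested. In bulk RNA a smaller share of a cell type and less RNA per cell cannot be told apart.

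The rest of the pathway was examined in lists of FGF ligands, receptors and adaptors, RAS-ERK cascade genes, other negative regulators, and transcripts induced by or acting below ERK. These genes were listed with earlier results of these data known. None passed without the block. With the block, each list held at least 1 gene called lower in 5p and none called higher, where 1.71% of all genes were called lower. These were 1 of 19 ligands, 1 of 19 receptors and adaptors, 2 of 20 cascade genes and 1 of 25 other negative regulators tested. The median log2 fold changes of these lists were 0.06, -0.02, -0.02 and -0.11 in the same order. In the list below ERK, 4 of 30 tested genes fell in 5p and none rose, with a median log2 fold change of -0.13 beside 0.01 over all genes. In 3p and SP, 0 of those 30 were called, with medians of -0.02 and 0.02. The 4 were Junb (-0.45, adjusted p = 0.0475), Ccnd1 (-0.47, adjusted p = 0.0136), Klf10 (-0.54, adjusted p = 0.00174) and Epha2 (-0.40, adjusted p = 0.0216). In 3p Junb stood at 102% ± 10.5 of scr, Ccnd1 at 77.8% ± 12.5, Klf10 at 84.3% ± 0.338 and Epha2 at 95.1% ± 5.15 (SD, n = 2). In 5p they stood at 73.6% ± 11.0, 72.7% ± 12.4, 68.6% ± 1.72 and 76.3% ± 11.5 in the same order. Junb is an immediate early gene and Ccnd1 encodes cyclin D1.

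The other genes lower in 5p lay at other levels of the pathway. Ptpn11, which encodes the adaptor phosphatase SHP2, was at 73.6% ± 3.83 of scr (log2 fold change -0.44, adjusted p = 0.00466), and at 71.1% ± 0.327 in SATS (-0.49, adjusted p = 0.0130). Dusp1, a phosphatase gene, was -0.49 (adjusted p = 0.00973), Rps6ka1, an ERK-activated kinase gene, -0.34 (adjusted p = 0.0330), and Fgf5, the ligand gene of the primed state, -0.68 (adjusted p = 0.0174). In 3p Dusp1 stood at 76.6% ± 3.49 of scr and Rps6ka1 at 89.7% ± 7.14, beside 71.3% ± 0.970 and 79.3% ± 9.71 in 5p. Ptpn11 and Fgf5 stood at 93.5% ± 0.0268 and 97.3% ± 16.5 in 3p (SD, n = 2). Klf10 kept its call in 9 of 10 fits that each left out 1 library, ending without scr replicate 3 (adjusted p = 0.0613), and Ccnd1 in 8, ending without scr replicate 3 or 5p replicate 3 (highest adjusted p = 0.261). Dusp1, Epha2, Fgf5, Ptpn11 and Rps6ka1 lost theirs without scr replicate 2, scr replicate 3 or 5p replicate 3, with highest adjusted p values of 0.111 for Ptpn11 to 0.368 for Rps6ka1, and Junb also without either SP library (highest adjusted p = 0.403). Summed levels of 6 neural markers were 2667 and 4043 in the 5p libraries, against 4015 to 4568 in scr and 4002 to 5163 in 3p. Those of 8 primitive endoderm markers were 1439 and 2416 in 5p, 859 and 1652 in scr and 884 and 1540 in 3p. Those of 5 mesoderm markers were 399.9 and 412 in 5p, 474 and 591 in scr and 416 and 618 in 3p. Neural sums were 3651 and 5036 in SP, 3230 and 4567 in SATS, and 3728 and 5056 in untreated and luciferase cells. In the same order, primitive endoderm sums were 822 and 1785, 675 and 1640, and 772 and 2085. Mesoderm sums were 398.9 and 427, 420 and 440, and 457 and 537, so low mesoderm sums were not particular to 5p. The part of these markers in the 5p values was not tested.

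Nras, a RAS gene, was low in SP. It had 2650 in scr, 1736 in SP, 2166 in 3p, 2632 in 5p and 2616 in SATS of set 2, and 2843, 1812, 2187, 2981 and 2879 in set 3. Nras fell in SP by 0.63 (SE 0.07, adjusted p = 0.00089), and was the 1 pathway gene called there. That call, in a fit where 0.515% of all genes were called lower, ended without scr replicate 3 (adjusted p = 0.0559). In 3p the value was -0.33 (adjusted p = 0.0794), and 5p exceeded 3p by 0.36 (adjusted p = 0.0137). SATS exceeded SP by 0.63 (adjusted p = 0.000411), a call that held in all 10 fits that left out a library (highest adjusted p = 0.0110).

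In the contrast of 5p with 3p, Nras was the listed gene called higher in 5p. Ccnd1, Dusp1 and Rps6ka1, called lower in 5p than in scr, were not called in this contrast. Ptpn11 (-0.35), Fgf5 (-0.62), Junb (-0.48), Klf10 (-0.30) and Epha2 (-0.32) were lower in 5p than in 3p, like the immediate early genes Fosb (-0.996) and Fosl1 (-0.89), Phlda1 (-0.64), and the RAS or FGF regulators Il17rd (-0.37) and Rasal2 (-0.47), with adjusted p values of 0.0156 to 0.0488. Fosb and Fosl1 were scarce, at 10.2 to 55.3 and 28.2 to 94.8 normalized reads over the 12 libraries of sets 2 and 3. In SATS, Fgfr4 (-1.09, adjusted p = 0.0360) and Ccnd1 (-0.39, adjusted p = 0.0368) were lower and Rasa1, a RAS GTPase activator gene, higher (0.39, adjusted p = 0.0482), beside 1.9% of all genes called higher there. Fgfr4 had at most 22.2 normalized reads in those sets. In SATS against SP, where 9.42% of all genes were called, Fgf11 (0.82), Fgfbp1 (0.45) and Dusp3 (0.54) were higher like Nras, while Ptpn11 (-0.40), Plcg1 (-0.29), Ptpn1 (-0.28) and Etv6 (-0.35) were lower. Of the 34 calls on these lists, 33 were also made by edgeR with the block, and 33 ended when at least 1 of the 10 libraries was left out; the exception was Nras in SATS against SP. Over these fits the log2 fold changes in 5p against 3p ran from -1.30 for Fosl1 to 0.42 for Nras.

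**Figure D5:**
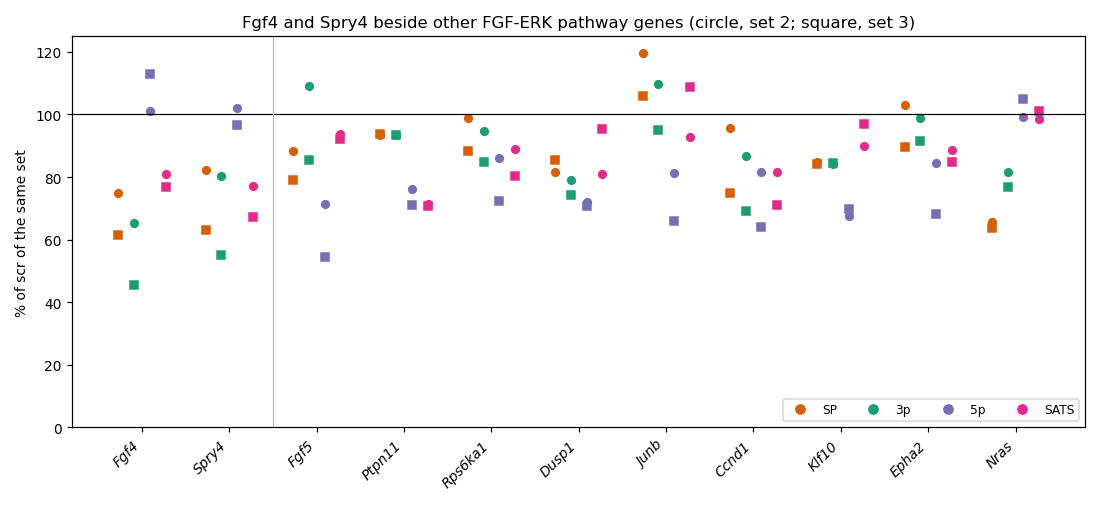
Level as a percentage of scr of the same set (y axis, from 0) for Fgf4, Spry4, 8 listed pathway genes called in 5p against scr with the replicate block, and Nras; circles are set 2 and squares set 3, colored by siRNA. In 5p Fgf4 and Spry4 stay near or above 100% while these 8 genes lie below it, and in 3p Fgf4 and Spry4 are at 45.5% to 80.4%.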

How the data were processed

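RNA-seq was analyzed in 16 libraries of serum-grown mESCs; 2 samples of cells in 2i medium were not analysed here. The deposited table holds a signal per gene, read counts that the authors divided by DESeq2 size factors; per the methods, reads were aligned with HISAT2 to mm10, counted with featureCounts and scaled with DESeq2 (1.14.1). All values (100%) were whole multiples of the value of 1 read within 1e-06, so whole reads were recovered. The table of CPM values that the authors deposited for set 1 was not used. Reads on genes per library ran from 9023224 to 45660840, and intervals from them cover counting error only.

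Genes whose values summed to 10 or more were tested here on log2(value + 1) with limma (3.58.1, trend, R 4.3.3) and Benjamini-Hochberg adjustment: SP against scr over 3 sets (15970 genes, SP 1a, 1b and 1c averaged), and scr, SP, 3p, 5p and SATS of sets 2 and 3 in one fit of 10 libraries (16490 genes). Fold changes on this scale understate changes of low genes. The labels name replicate sets, and libraries of a set deviated together: the correlation of deviations from group means was 0.80 over 3 pairs (0.77 to 0.82) and 0.86 over 20 pairs (0.81 to 0.93). The set was therefore also fitted as a block. The 20 pairs are not distinct values: with 2 libraries per group, deviations in set 3 mirror those in set 2. The pairs of set 3 thus repeat those of set 2. As alternatives, edgeR (4.0.16) and DESeq2 (1.42.0) were run on recovered reads. Other alternatives changed the pseudocount, the filter, the scaling, the controls and the libraries included. The scripts were tested on simulated data. Members and gene lists were chosen with earlier results of these data known. Genes named were the members, Stag1, listed pathway genes past an adjusted p of 0.05 in any comparison with or without the block, and the 3 genes most correlated with each member among those with a mean value of at least 50. Results for some genes are not reported here.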

Additional observations from a re-analysis of the deposited data

Results flagged for a closer look

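Spry2, Dusp6 and Dusp4 moved in opposite directions between sets under SP. The mean log2 ratio of SP to scr was 0.25 for Spry2, 0.73 for Dusp6 and 1.37 for Dusp4 in set 1, and -0.12, -0.19 and -0.21 in sets 2 and 3. Every SP library of set 1 was above its scr and every SP library of sets 2 and 3 below its own. The difference between sets was not tested, and all 3 ratios of set 1 share 1 scr library.

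The effects of 5p and 3p differed in the fit with the replicate block by 0.97 for Fgf4, 0.58 for Spry4 and -0.35 for Fgfr1 on the log2 scale. No SP library of any of the 10 members lay apart from the other SP libraries by Dixon's test over 5 libraries. That test looks only at the lowest and highest ratio, and the ratios of set 1 share 1 scr library. Where ratios split by set, as for Dusp4, it cannot show that the SP libraries agreed.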

How the results depend on the processing

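Without the block limma called 0 genes for SP over 3 sets, and in sets 2 and 3 it called 1 for SP, 1 for 3p, 2 for 5p, 0 for SATS, 0 for 5p against 3p and 2 for SATS against SP, with 0 members in each. With the replicate block the counts, in the order SP, 3p, 5p, SATS, 5p against 3p and SATS against SP, were 123, 47, 391, 436, 537 and 1554 genes, with 2 members in 3p, 2 in SATS and 3 in 5p against 3p, and it changed no other member's call. With edgeR and the block they were 134, 50, 397, 550, 529 and 1651, with 2, 1, 2 and 3 members in 3p, 5p, SATS and 5p against 3p, and 66 genes and 1 member for SP over 3 sets. DESeq2 without the block called 21, 5, 68, 3, 88 and 101, with 1 member in 5p against 3p, and 1 gene over 3 sets. With untreated and luciferase added to scr the counts were 4, 2 and 27 for SP, 3p and 5p. Alternatives added after seeing the data were these controls with the block (387, 219, 1119 and 1785 genes, and 3, 3, 3 and 5 members, for SP, 3p, 5p and SATS) and TMM factors with the block (132, 41, 410, 453, 555 and 1541 genes, with 1, 1, 2 and 3 members in 3p, 5p, SATS and 5p against 3p). Spry4 in 5p changed sign to 0.0271 with the added controls, with or without the block, and ran from -0.26 to 0.24 when 1 library was left out. Where leaving out a library left 1 in a group, that library was assumed to vary like the other groups. When 1 library was left out, counts ran from 1 to 1 for 5p and from 0 to 0 for SATS against SP. Of 70 member values, 36 changed sign under at least 1 alternative, the largest being 0.33 in size. The fewest reads, and so the widest counting error, were in set 1.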
